A study of Mus musculus with 2 samples.

Results

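Clustered histone genes were taken as every gene whose symbol starts with Hist1h, Hist2h, Hist3h or Hist4h, which gave 67 of the 32285 genes listed in both libraries. They comprise 6 linker histone genes (H1) and 61 core histone genes, of which 18 encode H2A, 18 H2B, 12 H3 and 13 H4. On the mm10 genome 54 lie on chromosome 13, 10 on chromosome 3, 2 on chromosome 11 and 1 on chromosome 6. The set was chosen on its UMI counts, whose linker and core sums had been seen to differ between the libraries, so the values below describe that difference and do not test it. Single-cell RNA was measured by droplet sequencing (10x Genomics) in pancreatic tumours of KPPC mice, dissociated with collagenase. The labels do not spell out KPPC or give the alleles and the Cre driver behind it. Mice aged 6 weeks received vehicle or takinib, an inhibitor of the kinase TAK1, at 50 mg/kg for 14 days, and each treatment has 1 library. The number of mice behind a library is not given in the sources used here, so the treatment, the animals and the library preparation cannot be told apart.

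Histones package DNA: pairs of H2A, H2B, H3 and H4 form the core particle, and the linker histone H1 binds where the DNA enters and leaves it. Most clustered histone genes are transcribed when DNA is replicated, and their mRNA ends at a conserved stem-loop bound by Slbp in place of a poly(A) tail. In cells that leave the cycle some of these genes are known to give polyadenylated transcripts that run past the stem-loop, and droplet methods of this kind usually prime on poly(A) tails.

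The stem-loop is shown because it defines the family and because the distance from it to the end of the gene model is used below. The stem-loop consensus (a pair of G, 2 free bases, CTTTT, 1 free base, AG, 2 free bases and a pair of C), searched on the transcript strand alone, was found in 44 of 67 members (65.7%) and in 45 of 55383 other annotated genes (0.0812%). In the lines below, written 5′ to 3′ on the gene's strand, capitals mark those letters.
Hist1h1c (chr13:23738808-23740367, plus strand): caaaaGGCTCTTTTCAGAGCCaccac
Hist1h1d (chr13:23553262-23560686, plus strand): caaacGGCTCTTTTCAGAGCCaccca
Hist1h1e (chr13:23620629-23622558, minus strand): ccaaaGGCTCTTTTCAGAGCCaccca
Hist1h2ap (chr13:21833026-21833507, minus strand): aaaaaGGCTCTTTTCAGAGCCatc
Hist1h4c (chr13:23697635-23698454, minus strand): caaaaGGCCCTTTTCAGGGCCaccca
Hist1h4i (chr13:22040636-22041362, minus strand): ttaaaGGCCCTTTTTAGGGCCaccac
The gene model of Hist1h2ap stops 3 bases after the stem-loop, whereas that of Hist1h1c runs on for 840 bases, that of Hist1h1e for 1153 and that of Hist1h1d for 4884. Of the 67 members, 22 have a model that runs over 100 bases past the stem-loop, 22 end within 100 bases of it, 6 have no such motif but an AATAAA signal, and 17 have neither. Hist1h1b, Hist1h1a and Hist1h2bc have no stem-loop in their models, and those of Hist1h1a and Hist1h2bc hold AATAAA.

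Promoters were matched in the RefSeq table (GRCm38.p6) for 61 members. The 250 bases before the start of transcription held AAACACA, a heptamer known from linker histone promoters, in 5 of 6 linker genes and 4 of 55 core genes, against 6.246% of 32851 promoters. CCAAT was present in 6 of 6 and 44 of 55 (33.85% of all), TATAAA in 4 of 6 and 25 of 55 (12.37%), and TTTGCAT, the octamer core of H2B promoters, in 0 of 6 and 14 of 55 (4.125%). Both strands were searched, and a match describes letters, not a bound site. The last 150 bases before the start are shown for the 4 linker genes that carry most linker RNA, since these share the heptamer at 112 to 122 bases before the start; capitals mark the heptamer, the CCAAT box and the TATA letters on either strand, and the first capitals of Hist1h1d belong to a match that begins outside the window.
Hist1h1c (chr13:23738657-23738806, plus strand): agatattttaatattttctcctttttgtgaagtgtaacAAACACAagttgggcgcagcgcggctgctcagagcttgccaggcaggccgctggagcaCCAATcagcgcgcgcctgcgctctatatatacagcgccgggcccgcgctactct
Hist1h1d (chr13:23554882-23555031, plus strand): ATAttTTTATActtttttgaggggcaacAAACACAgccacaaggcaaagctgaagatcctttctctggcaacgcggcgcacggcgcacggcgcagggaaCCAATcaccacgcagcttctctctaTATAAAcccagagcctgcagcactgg
Hist1h1e (chr13:23622559-23622708, minus strand): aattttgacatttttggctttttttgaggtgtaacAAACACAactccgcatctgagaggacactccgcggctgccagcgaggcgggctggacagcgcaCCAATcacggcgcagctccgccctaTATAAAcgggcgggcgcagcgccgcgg
Hist1h1b (chr13:21780626-21780775, minus strand): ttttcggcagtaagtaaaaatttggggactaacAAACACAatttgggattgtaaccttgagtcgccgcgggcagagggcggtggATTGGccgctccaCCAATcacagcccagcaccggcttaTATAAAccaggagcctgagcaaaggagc
The RefSeq start of Hist1h1d lies 1770 bases inside the gene model used for its coordinates above. Hist1h1a is the linker gene without the heptamer.

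Cells were kept with at least 1000 unique molecules (UMIs), at least 500 genes and at most 20% mitochondrial UMIs, and likely doublets were removed. This left 9541 vehicle cells with 41904732 UMIs and 25183 takinib cells with 119726976. The median cell held 3556 UMIs and 8.70% mitochondrial UMIs in vehicle against 2887 and 1.79% in takinib. The vehicle matrix lists 704261 barcodes without a filter, whereas no takinib barcode has fewer than 500 UMIs, and 400 barcodes occur in both. Cells with Xist and no Y-linked UMI and cells of the opposite kind were both present in vehicle (564 and 1402 macrophage-like cells), and only the first kind in takinib, so the vehicle library holds cells of both sexes. Cell classes were built from marker genes without the histone genes, and a name such as macrophage-like says only that.

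The members held 149510 UMIs, and 63 of them had at least 50. Hist1h2bc was the highest member, with 23591 UMIs and 73.3% of all H2B UMIs. Hist1h1c led the linker genes with 18588 UMIs, followed by Hist1h1e with 12435. Hist1h2ap led H2A (11432), Hist1h4i led H4 (6895) and Hist1h3e led H3 (3093). These are shares of counted molecules, not levels per transcript length. The 4 highest genes held 44.2% of the family's UMIs, and the testis linker gene Hist1h1t had 36 in all. In the last 300 bases of their transcripts, 35 members share at least 50% of their 50-base words with other genes, among them Hist1h1e, Hist1h2ap, Hist2h2aa1 and Hist1h3e, so counts of these genes are uncertain. Hist1h1c, Hist1h1d and Hist1h1b share none.

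Levels are given as UMIs per 1000000 UMIs of a class in a library (CPM), with 95% exact Poisson intervals that cover counting error only. In vehicle, linker RNA was highest in neutrophil-like cells (2026 CPM, 1880 to 2180), then in macrophage-like (676, 665 to 687) and dendritic-like cells (546, 470 to 630). T-like cells held 302 CPM (247 to 365) and B-like cells 240 (194 to 292), which overlap. Perivascular-like (161), endothelial-like (140), fibroblast-like (139) and epithelial-like (135) cells followed with intervals that overlap between neighbours. In vehicle, then, the myeloid classes stood above the lymphoid ones, and those above stroma and epithelium.

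In takinib the order was another. Granulocyte precursor-like cells had the highest linker level (1005 CPM, 972 to 1039), and erythroid-like cells had 552 (514 to 593). The former are 1 cluster led by Mpo, Car1, Ctsg and Elane with the erythroid genes Ermap and Rhd also in its top 10, and its erythroid markers summed to 12516 CPM beside 7516 CPM of granulocyte precursor markers, so its content is mixed. Both classes were close to absent from vehicle, with 0 cells and 1 cell. The unnamed cluster 14, led by Camp, Ngp and Ltf, had 610 CPM (587 to 633), above erythroid-like cells. Dendritic-like cells held 434 CPM (380 to 493), plasma-like cells 368 (342 to 396), neutrophil-like cells 252 (246 to 258) and B-like cells 243 (215 to 273). Macrophage-like cells stood near the bottom at 167 (164 to 171), above epithelial-like cells at 119 (113 to 125) and the unnamed cluster 7 at 110 (103.5 to 117). Linker genes made up 40.1% of the members' UMIs in vehicle macrophage-like cells and 58.6% in vehicle neutrophil-like cells. In the 8 other vehicle classes with at least 100 cells that share was 18.4% to 34.1%, and in the 13 takinib classes 23.2% to 32.8%.

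**Figure D1:**
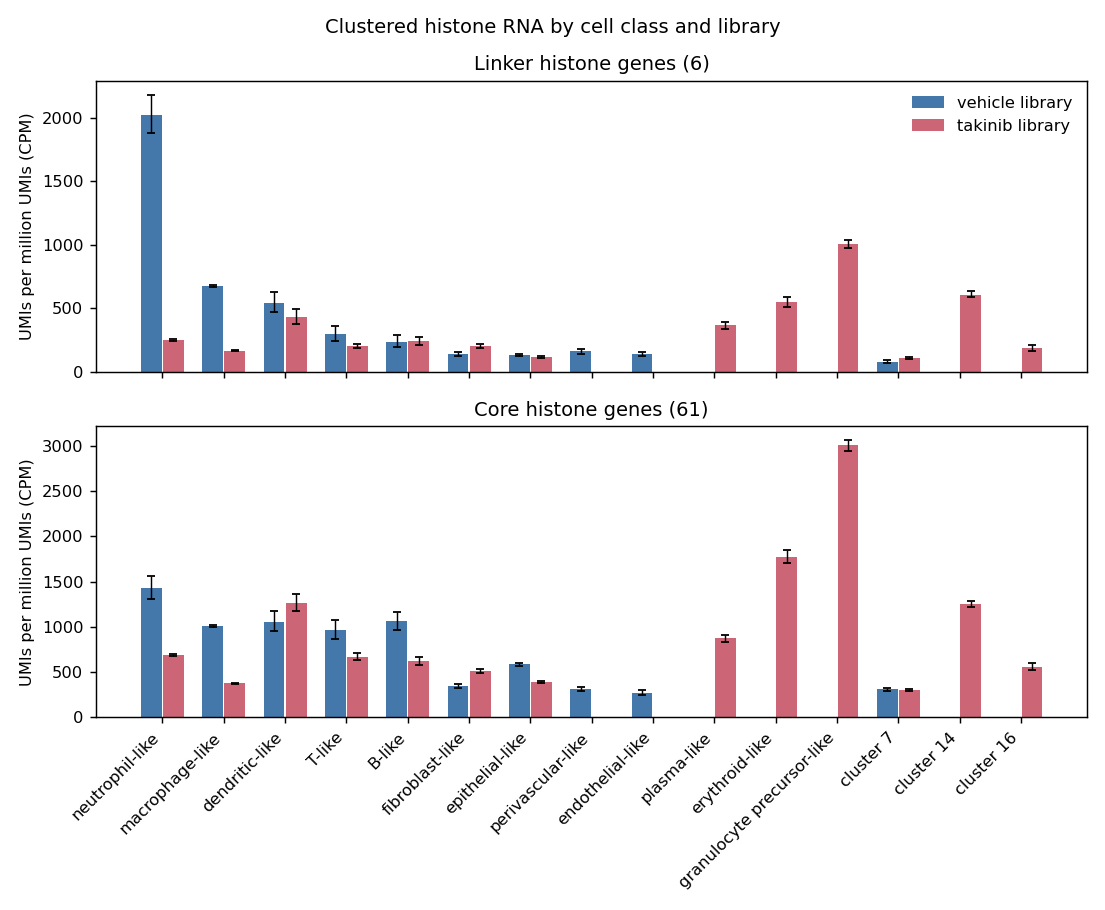
Linker (top) and core (bottom) histone RNA in CPM for each class with at least 100 cells in a library; bars are the sum over the class, whiskers the 95% exact Poisson interval, and a missing bar means fewer cells. Vehicle neutrophil-like (2026 CPM) and macrophage-like cells (676 CPM) stand far above the takinib bars of the same classes (252 and 167 CPM).

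The members did not divide the classes in the same way. Hist1h2bc was the highest core gene in both libraries in epithelial-like (295 CPM in vehicle, 141 in takinib) and fibroblast-like cells (193 and 159). Hist1h2ap, whose model ends at the stem-loop, was 842 CPM in granulocyte precursor-like and 432 in erythroid-like takinib cells, against 14.2 in vehicle neutrophil-like cells. Hist1h1c went the other way, at 83.8 CPM in granulocyte precursor-like and 1053 in vehicle neutrophil-like cells. Hist1h1d exceeded 100 CPM in vehicle neutrophil-like (509), macrophage-like (154) and dendritic-like cells (108) and in takinib granulocyte precursor-like cells (129).

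**Figure D2:**
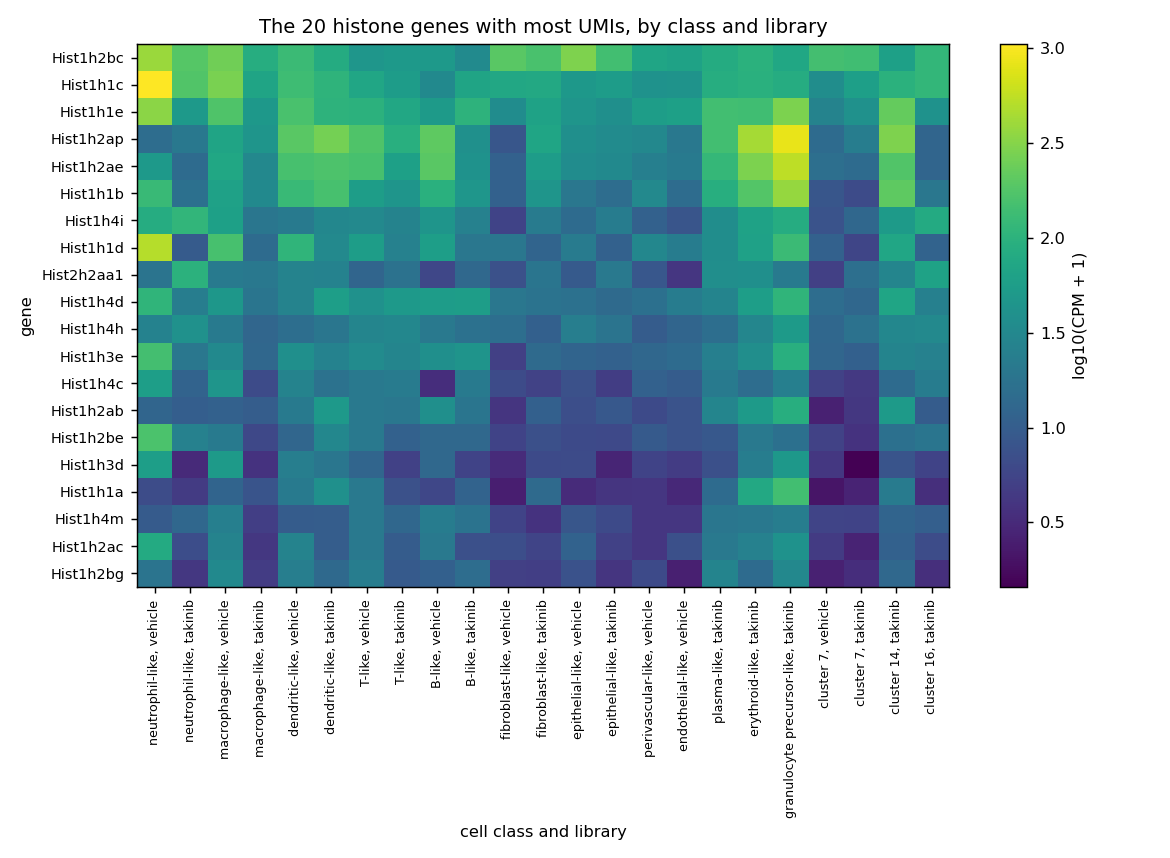
Level of the 20 members with most UMIs (rows) in each class and library with at least 100 cells (columns), as log10(CPM + 1). Hist1h1c and Hist1h1d are brightest in vehicle neutrophil-like cells, and Hist1h2ap, Hist1h2ae and Hist1h1b in takinib granulocyte precursor-like cells.

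Macrophage-like cells gave the largest class present in both libraries, with 5014 vehicle and 7315 takinib cells. Their linker RNA was 676 CPM in the vehicle and 167 CPM in the takinib library, a log2 ratio of -1.95 (95% counting interval -1.99 to -1.92) after 10 CPM were added to each side. Core RNA was 1011 CPM (998 to 1024) in vehicle and 375 CPM (370 to 381) in takinib, a log2 ratio of -1.41. By family the log2 ratio was -0.80 for H2A, -1.56 for H2B, -1.41 for H3 and -1.72 for H4, so linker genes differed most and H2A least. The median of all genes was -0.01. Each side is 1 library, so the spread between replicates is unknown and no difference carries a p-value.

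A gene was compared in a class where it had at least 50 UMIs in 1 of the libraries, and a log2 ratio past 1 was counted as a difference. Of 58 members compared in macrophage-like cells, 13 were lower in takinib and 0 higher, where 1.16% of the 12041 genes compared were lower and 1.83% higher. The contrast served to choose the set, so nothing is read from that gap. The median of the 58 members was -0.38, and 55 of them were below 0. The 13 were 3 linker genes, 2 H2A, 2 H2B, 1 H3 and 5 H4 genes, and the 9 members under 50 UMIs were not compared.

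Among linker genes, Hist1h1d (RefSeq H1f3) was 154 CPM in the vehicle and 13.6 CPM in the takinib library, a log2 ratio of -2.80 that only 3 of all genes compared exceeded downward. Hist1h1c (H1f2), the most abundant of them, was 280 CPM and 67.1 CPM (-1.91). Hist1h1e (H1f4) was 169 CPM and 48.0 CPM (-1.62). Each of these 3 passed the threshold. The other linker genes were nearer to equal: Hist1h1b (H1f5) was 61.8 CPM and 31.7 CPM (-0.78), and Hist1h1a (H1f1) 11.05 CPM and 6.93 CPM.

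Among core genes the H3 gene Hist1h3d was 51.1 CPM in the vehicle and 2.82 CPM in the takinib library (-2.25), and the H4 gene Hist1h4c 43.4 CPM and 5.44 CPM (-1.79). The H2B gene Hist1h2bg was 31.7 CPM and 3.69 CPM (-1.61), and the H2A gene Hist1h2ac 26.7 CPM and 3.16 CPM (-1.48). Hist1h2bc, the most abundant, was 250 CPM and 86.2 CPM (-1.43). At the border, Hist1h4d was just inside (46.5 CPM and 17.9 CPM, -1.02) and Hist1h2be just outside (20.1 CPM and 5.04 CPM, -0.9999). Hist2h2aa1 hardly differed, at 20.4 CPM and 19.1 CPM (-0.07), and Hist1h3b was the highest ratio of all members at 0.06. The differences thus ran across all families but not across all members of a family.

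**Figure D3:**
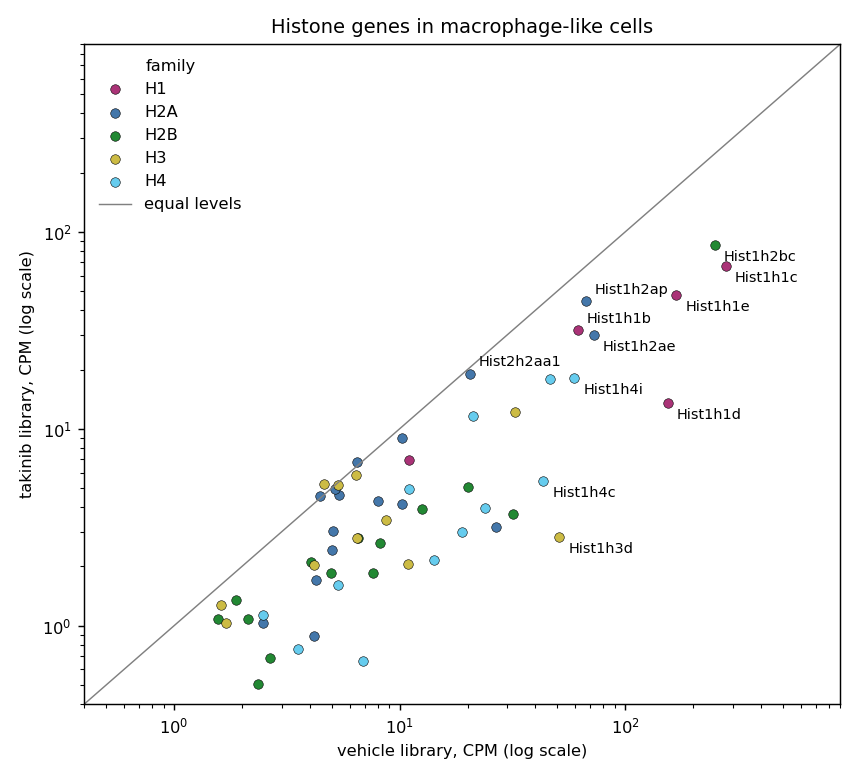
Each of the 58 compared members in macrophage-like cells, vehicle CPM on the x axis and takinib CPM on the y axis, both on log scales, coloured by family; the line marks equal levels. Hist1h1d (154 against 13.6 CPM) and Hist1h3d (51.1 against 2.82 CPM) lie farthest below the line, and Hist2h2aa1 lies close to it.

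The members were also counted by the end of their gene model. Of the 20 compared members whose model runs over 100 bases past the stem-loop, 10 were lower in takinib, with a median log2 ratio of -1.01. Of the 21 that end within 100 bases of it, 2 were lower (the H4 genes Hist1h4m and Hist1h4n), with a median of -0.29. Of the 17 without the motif, only Hist1h2bc was lower. With 10 CPM added to each side, a member at or below 10 CPM in vehicle cannot be counted as lower, whatever its fold change. The ratios of rare members also lie nearer 0, so nothing is read from the counts and medians by gene model. The ranges of the long models (-2.80 to -0.05) and the short ones (-1.28 to 0.06) overlap. Over all kept cells of both libraries and all 22 members of each kind, the median long-model member had 1459 UMIs and the median short-model one 785.5. The difference between long and short models was not tested. The long-model group holds Hist1h1c, Hist1h1d, Hist1h1e, Hist1h3d and Hist1h4c, and the short one Hist1h2ap and Hist2h2aa1. Hist1h1e of the long models and Hist1h2ap and Hist2h2aa1 of the short ones are among the genes with uncertain counts named above. Counts of Hist1h4m and Hist1h4n, which share 100% and 88.84% of their words with other genes, are uncertain too. The part of shared words in the contrast was not tested.

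Linker RNA was lower in takinib in each of the 5 macrophage-like clusters. The fullest cluster in vehicle was cluster 2, led by H2-Ab1 and Cd74 (2781 cells), and in takinib cluster 1, led by F13a1 and Saa3 (3075 cells). In cluster 3, led by Gpnmb, Apoe and C1qc, which held 1389 vehicle and 1626 takinib cells, linker RNA was 696 CPM (674 to 718) and 168 CPM (161 to 176). Cluster 6, led by Atp6v0d2 and Car4, had 761 and 1265 cells with 700 CPM and 257 CPM. Cluster 2 gave 659 CPM and 167 CPM with 293 takinib cells, and cluster 1 gave 777 CPM and 127 CPM with 72 vehicle cells. Takinib linker levels stayed between 127 and 257 CPM over these 4 clusters and vehicle levels between 659 and 777 CPM. Cluster 10 had 11 vehicle cells, with 611 CPM against 170 CPM.

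Other measures moved with the library. The median macrophage-like cell held 3899 UMIs and 7.92% mitochondrial UMIs in vehicle against 5924 and 2.57% in takinib. Among cells with more than 4000 and up to 8000 UMIs linker RNA was 681 CPM in 2051 vehicle cells and 113 CPM in 3506 takinib cells, and above 8000 UMIs 793 CPM in 356 and 222 CPM in 2095 cells. Among cells with 5 to 10% mitochondrial UMIs it was 671 CPM in 2898 and 123 CPM in 528 cells, and with 2 to 5% it was 775 CPM in 575 and 164 CPM in 4770 cells. Vehicle cells with Xist and no Y-linked UMI, the kind also present in takinib, had 572 CPM against 171 CPM. The part of depth and mitochondrial share in the difference was not tested.

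RNA outside cells could be read in vehicle alone. Vehicle barcodes with 1 to 100 UMIs, which hold free RNA and debris, had 544 CPM of linker and 698 CPM of core RNA. Linker RNA of vehicle macrophage-like cells was 676 CPM and of epithelial-like cells 135 CPM. No takinib barcode of that size is listed. Takinib macrophage-like cells carried 8694 CPM over the 9 neutrophil markers and vehicle ones 415 CPM, and over the 12 macrophage markers 12535 CPM and 23166 CPM, with no marker at 0. With the takinib neutrophil-like profile subtracted the linker log2 ratio was -2.01. The part of free RNA in the vehicle levels was not tested.

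When each cell was thinned to 1000 UMIs, 42.2% of vehicle macrophage-like cells (40.8% to 43.6%, Clopper-Pearson) and 10.95% of takinib ones (10.2% to 11.7%) held a linker UMI. Unthinned, the shares were 74.9% and 41.1%. No class is known to lack linker RNA. The lowest class, the unnamed cluster 7 led by Tff2 and Reg1, had 9.21% in vehicle and 8.18% in takinib after thinning.

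None of the histone genes outside the clusters and none of the genes that process or carry histones passed a log2 ratio of 1 in macrophage-like cells. Of all genes compared there 1.16% were lower and 1.83% higher, so counts of 0 in such short lists are near that share. In neutrophil-like cells some genes of the same lists did pass it, as given below. The replacement linker genes H1f0 (99.3 CPM and 74.9 CPM, -0.36) and H1fx (10.9 CPM and 3.91 CPM, -0.59) were the 2 of 5 compared, with a median of -0.47. Of 13 replacement core genes 8 were compared, with a median of -0.33, from H3f3b at -0.55 to H3f3a, the highest, at 0.27. Of 16 histone pre-mRNA processing genes 15 were compared, with a median of -0.02, from Cdk2 (-0.35) to Clp1 (0.25). Of 18 histone chaperones 18 were compared, with a median near 0, from Hjurp (-0.31) to Chaf1b (0.17). Of the S-phase genes 31 of 32 were compared (median -0.16), of the G2/M genes 38 of 38 (median -0.14), and 0 passed in either list. The medians of the replacement linker (2 genes) and core lists (8 genes) lay near the members' median of -0.38, and those of the processing and chaperone lists near that of all genes. A median counts rare and abundant genes alike, and the added 10 CPM pull the ratios of rare ones towards 0. The summed clustered linker and core RNA of the class had log2 ratios of -1.95 and -1.41. Differences between the lists and the members were not tested.

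Cell cycle state was read from 32 S-phase and 38 G2/M genes, none of them histones. Cells with at least 3 such UMIs making up at least 0.1% of the cell were called high, cells with 0 were taken as the other end, and high cells were divided by which list gave more UMIs. In vehicle 11.1% of macrophage-like cells were high and in takinib 7.10%, or 6.103% and 4.35% after thinning. The division is a range and not a type: 1572 vehicle and 2778 takinib cells held 2 to 4 such UMIs.

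In cells with no cycle UMI, linker RNA was 610 CPM (588 to 633) in 1409 vehicle cells and 97.9 CPM (91.0 to 105) in 1598 takinib cells, a log2 ratio of -2.52. Core RNA was 807 CPM and 241 CPM (-1.70) in the same cells. In high cells led by S-phase genes, linker RNA was 678 CPM and 419 CPM (-0.68). In those led by G2/M genes it was 1205 CPM (1150 to 1262) in 262 vehicle cells and 1115 CPM (1074 to 1157) in 270 takinib cells, whose intervals overlap (-0.11). Core RNA there was 2868 CPM and 2310 CPM (-0.31). Cells between these ends, 3048 vehicle and 5198 takinib, had 643 CPM and 103 CPM of linker RNA (-2.53) and 853 CPM and 240 CPM of core RNA (-1.79). The ratios of cells with no cycle UMI and of cells between were thus of like size, and those of the G2/M-led cells were the nearest to 0 of these states.

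**Figure D4:**
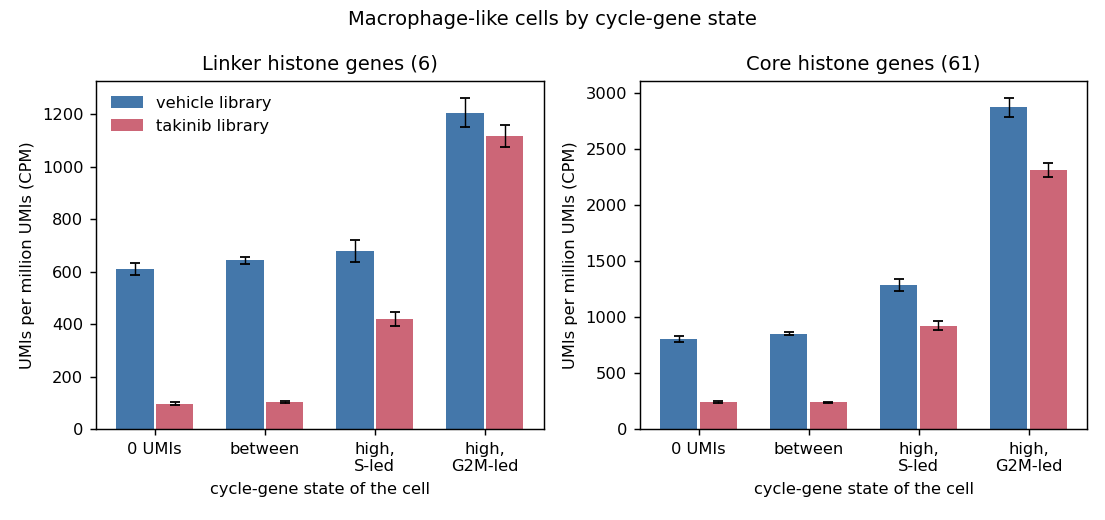
Linker (left) and core (right) histone RNA in CPM of macrophage-like cells by cycle-gene state; bars are sums over the cells of a state, whiskers 95% exact Poisson intervals. The takinib bars climb from 97.9 to 1115 CPM of linker RNA, while the vehicle bars start at 610 and reach 1205 CPM.

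Seen within a library, high cells exceeded cells without cycle UMIs by a log2 ratio of 0.60 (0.53 to 0.68) for linker and 1.33 (1.27 to 1.39) for core RNA in vehicle. In takinib the same ratios were 2.90 (2.79 to 3.01) and 2.75 (2.67 to 2.82). Linker RNA thus followed the cycle genes less than core RNA did in vehicle, and about as much in takinib.

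Of 41 members compared in vehicle 19 were past 1 and higher in high cells (3.45% of all genes), with a median of 0.96. In takinib 28 of 38 were (4.48% of all genes), with a median of 1.34, and 0 were lower in either library. The H2A genes Hist1h2ap (log2 ratio 3.31 in vehicle, 4.75 in takinib) and Hist1h2ae (2.91 and 3.87) and the linker gene Hist1h1b (2.19 and 3.93) were the most cycle-linked. Hist1h1d (0.49 and 2.98) and Hist1h1e (0.63 and 2.64) were cycle-linked in takinib and little so in vehicle. Hist1h4c (-0.25 and 0.66), Hist1h2bc (0.18 and 0.50) and Hist2h2aa1 (0.08 and 0.12) stayed under 1 in both libraries, and Hist1h1c was -0.13 in vehicle and 1.00 in takinib.

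**Figure D5:**
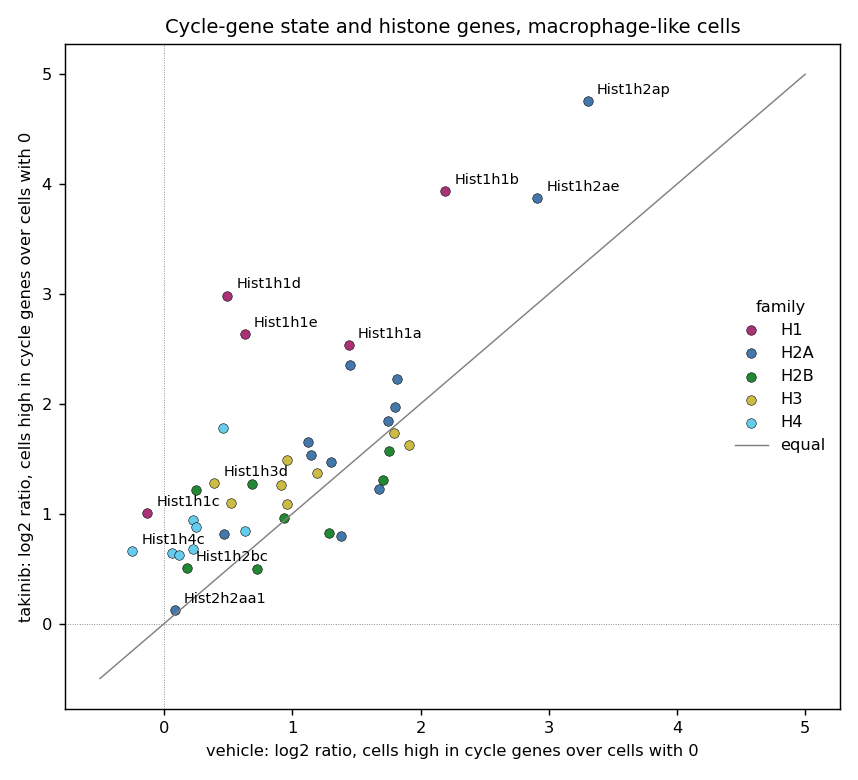
Log2 ratio of macrophage-like cells high in cycle genes over cells with 0 such UMIs, vehicle on the x axis and takinib on the y axis, for the members compared in at least 1 library, coloured by family; the line marks equal ratios. Hist1h1d (0.49, 2.98) and Hist1h1e (0.63, 2.64) lie far above the line, and Hist1h2ap (3.31, 4.75) is the highest in both.

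The same contrast can be read gene by gene. In vehicle cells with no cycle UMI, Hist1h1d was 143 CPM, and in high cells 205 CPM. In takinib it was 4.54 CPM in cells with no cycle UMI and 105 CPM in high cells. Hist1h1e was 145 CPM and 229 CPM in vehicle, and 29.4 CPM and 235 CPM in takinib, so the high cells of both libraries had nearly the same level. Hist1h1c was 279 CPM and 254 CPM in vehicle against 53.0 CPM and 116 CPM in takinib, and Hist1h2ap 23.8 CPM and 324 CPM against 5.88 CPM and 418 CPM. Of 21 members compared between the libraries in cells with no cycle UMI, 16 were lower in takinib and 0 higher (2.20% of 8485 genes lower, 3.08% higher), with a median of -1.29. All 21 had at least 50 UMIs in vehicle, and some had fewer in takinib, such as Hist1h1d (660 and 34 UMIs). Members rare in vehicle, such as Hist1h3b (2 and 26 UMIs), were not compared. The contrast also served to choose the set, so nothing is read from these counts or their median.

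Summed by gene model in macrophage-like cells with no cycle UMI, the 18 core genes that run over 100 bases past the stem-loop held 372 CPM in vehicle against 84.8 CPM in takinib, and the 22 that end near it 162 CPM and 67.5 CPM. The 4 linker genes with long models held 567 CPM and 87.0 CPM. In high cells the short-model core genes reached 744 CPM in vehicle and 795 CPM in takinib, while the long-model core genes held 796 CPM and 551 CPM.

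Neutrophil-like cells showed the widest gap in linker RNA, though not in core RNA. There were 270 in vehicle, with a median of 1216 UMIs and 14.4% mitochondrial UMIs, and 11816 in takinib, with 1797 UMIs and 0.929%. Linker RNA was 2026 CPM in the vehicle and 252 CPM in the takinib library, a log2 ratio of -2.96 (-3.07 to -2.84). Core RNA was 1431 CPM and 693 CPM (-1.04). The median of all genes in this class was -0.38, and with it set to 0 the ratios became -2.58 and -0.66. Almost all vehicle cells (269) fell in cluster 5, led by Retnlg and Cxcr2, where the takinib cells had 261 CPM of linker RNA. Vehicle cells of the class had 39166 CPM over the 9 neutrophil markers against 125320 CPM, and 2168 CPM over the 12 macrophage markers against 797 CPM, with none of either at 0; their part in the difference was not tested.

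In this class Hist1h1d was 509 CPM in the vehicle and 8.65 CPM in the takinib library (-4.80), the lowest ratio of all 10124 genes compared. Hist1h1c was 1053 CPM and 174 CPM (-2.53), and Hist1h1e 333 CPM and 50.2 CPM (-2.51). The H2B gene Hist1h2be was 162 CPM and 25.2 CPM (-2.29). In all, 15 of 45 members were lower in takinib, in a class where 15.8% of all genes were lower. Of the 15, 13 have a model that runs over 100 bases past the stem-loop, as have 17 of the 45 compared. Here too members at or below 10 CPM in vehicle could not be counted as lower, and the split by gene model was not tested. Hist2h2aa1 was the only member that was higher, at 17.1 CPM from 6 UMIs in vehicle and 100.1 CPM in takinib (2.02), where 4.51% of all genes were higher. Outside the clusters, the 1 replacement linker gene compared was lower (-2.86). So were 2 of 8 replacement core, 4 of 15 processing and 6 of 15 chaperone genes, and 0 of these were higher. Within takinib, high cells had 544 CPM of linker RNA and cells with no cycle UMI 246 CPM (1.11).

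Epithelial-like cells, whose markers the ductal tumour cells of the pancreas also carry, differed little in linker RNA. Linker RNA was 135 CPM (127 to 144) in 1182 vehicle cells and 119 CPM (113 to 125) in 1126 takinib cells, a log2 ratio of -0.17. That sign turned with thinning (0.14), with a mean over cells (0.064) and against the vehicle cells with Xist and no Y-linked UMI (0.33). Core RNA was 586 CPM and 393 CPM (-0.57), and the sign turned against the latter cells (0.25). With the median gene of the class (-0.10) set to 0 the ratios were -0.07 and -0.46. Takinib epithelial-like cells carried 13445 CPM over the 9 neutrophil markers and vehicle ones 111 CPM, with 9450 CPM and 8799 CPM over the 12 epithelial markers. With the takinib neutrophil-like profile subtracted the linker ratio was -0.36 and the core ratio -0.70, and what else of it enters the ratios was not tested. Only Hist1h2bc passed 1, at 295 CPM and 141 CPM (-1.02), so 1 of 21 members was lower (2.52% of all genes) and 0 higher (3.33%). Hist1h1d was 21.6 CPM and 10.3 CPM, and Hist1h1c 47.7 CPM and 53.7 CPM. The clusters differed between libraries: 810 vehicle and 447 takinib cells sat in cluster 8 (linker 108 and 96.8 CPM, core 559 and 367 CPM), and the rest in clusters filled mostly by 1 library. Cluster 24, led by Mptx1 and Muc2 and nearly all vehicle, had 382 CPM of linker RNA. High cells exceeded cells with no cycle UMI by 1.11 for linker RNA in vehicle and 0.91 in takinib.

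Lymphoid cells differed less in linker RNA than macrophage-like and neutrophil-like cells did. T-like cells (219 vehicle, 1032 takinib) had 302 CPM and 204 CPM of linker RNA (-0.54) and 970 CPM and 672 CPM of core RNA (-0.52). The 9 neutrophil markers came to 13079 CPM in takinib T-like cells against 265 CPM in vehicle ones, and the T cell markers to 2998 CPM and 3502 CPM; the part of the former in these ratios was not tested. The core ratio ran from -1.42 in cells with at least 2000 UMIs to -0.21 after thinning. Their cycle genes summed to 2532 CPM and 1244 CPM, and 1 of 11 members was lower, Hist1h2ae (152 CPM and 60.97 CPM), where 1.75% of all genes were lower, and 0 were higher (6.23%). B-like cells (208 and 666) had 240 CPM and 243 CPM of linker RNA (0.02, from -0.62 to 0.29 under the alternatives) and 1065 CPM and 619 CPM of core RNA (-0.77, from -1.64 to -0.41). Their cycle genes summed to 3306 CPM and 792 CPM, and Hist1h2ap (205 CPM and 38.5 CPM) and Hist1h2ae (195 CPM and 40.3 CPM) were the 2 of 6 members that were lower (1.5% of all genes), and 0 were higher (5.04%). In B-like cells with no cycle UMI core RNA was 415 CPM and 540 CPM (0.37, interval -0.07 to 0.83). The part of the cycle genes in the core difference was not tested further. Over the neutrophil markers takinib B-like cells carried 4123 CPM, dendritic-like cells 6401 CPM and fibroblast-like cells 9865 CPM, against 88.9 CPM, 137 CPM and 122 CPM in vehicle, and their part was not tested.

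Fibroblast-like cells went the other way. Their linker RNA was 139 CPM in 638 vehicle cells and 207 CPM in 312 takinib cells (0.55), and core RNA 346 CPM and 509 CPM (0.54). With no doublets removed the ratios were 0.15 and 0.25, and against vehicle cells with Xist and no Y-linked UMI the core ratio was 1.08. Of 10 members 4 were higher (4.73% of all genes) and 0 lower (6.14%): Hist1h2ap (7.45 CPM and 67.9 CPM), Hist1h2ae (10.1 and 54.4), Hist1h1b (10.1 and 44.2) and the H4 gene Hist1h4i (4.47 and 21.2). The cycle genes were at 441 CPM and 2126 CPM. Hist1h1d was 18.6 CPM and 11.04 CPM, and Hist1h1c 73.4 CPM and 75.6 CPM. In fibroblast-like cells with no cycle UMI linker RNA was 166 CPM and 145 CPM (-0.18, interval -0.84 to 0.45).

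Dendritic-like cells (114 and 112) had 546 CPM and 434 CPM of linker RNA (-0.32, and 0.09 after thinning), and core RNA of 1056 CPM and 1263 CPM (0.26, and -0.03 after thinning). Here too the states parted: with no cycle UMI, linker RNA was 450 CPM in 44 vehicle cells and 93.4 CPM in 29 takinib cells (-2.15, interval -3.17 to -1.21), and in high cells 1009 CPM in 23 and 1600 CPM in 22 cells (0.66). None of the 5 members compared passed 1 (2.96% of all genes lower, 5.57% higher). The unnamed cluster 7 held 81.5 CPM and 110 CPM of linker RNA (0.39), and 0 of its 11 compared members passed 1 (0.676% of all genes lower, 2.31% higher).

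Takinib classes rich in cycling cells showed what the members reach. In granulocyte precursor-like cells 247 of 288 were high and held 1069 CPM of linker and 3206 CPM of core RNA. High erythroid-like cells held 1256 CPM and 4214 CPM, against 111 CPM and 359 CPM in those with no cycle UMI (log2 ratios 3.39 and 3.52). Over the whole class the macrophage markers came to 8105 CPM and the neutrophil markers to 30437 CPM, beside 144120 CPM of erythroid markers. Whether its high cells and those with no cycle UMI are of the same kind was not tested. In the unnamed cluster 14, led by Camp, Ngp and Ltf, the ratios were 3.30 and 3.31, and 27 of 29 members were higher in high cells, where 22.2% of all genes were. In high plasma-like cells linker RNA was 1162 CPM against 160 CPM.

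Across 23 class-by-library sums with at least 100 cells, log2(CPM + 10) of the linker and core sums had a Pearson r of 0.871. The columns share 2 libraries and their depth, so this is a description. The summed cycle genes had an r of 0.357 with linker and 0.599 with core RNA. The genes closest to the linker sum, among 11777 with at least 500 UMIs, were Mknk1 (r = 0.7498), Relt (0.747), Gm46224 (0.734), B930036N10Rik (0.733) and Ptpn7 (0.723). Those closest to the core sum were Kif15 (0.799), a spindle motor, Hmgb2 (0.795), a chromatin protein of cycling cells, Fbxo5 (0.780), an inhibitor of the anaphase-promoting complex, Parvg (0.770) and Dck (0.769), the deoxycytidine kinase.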

How the data were processed

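The authors deposited raw UMI counts per gene and barcode, 1 matrix for each of 2 libraries, made with Cell Ranger 4 (vehicle) and 6.1.1 (takinib) per the file headers. The submitters' processing notes name mm10, Cell Ranger 2.1.1, bcl2fastq, STAR 2.0.4b, Subread and featureCounts 1.45. Doublets were scored with Scrublet in scanpy 1.11.5. The automatic threshold removed 331 vehicle cells (3.35%). In takinib it marked 0.0187%, so the highest 6% of scores were removed (1607 cells). Counts were scaled to 10000 per cell and logged, 30 components were computed from 2000 variable genes without the histone and listed genes, and cells were joined to 15 nearest neighbours (scikit-learn 1.9.0) and clustered with the Leiden method (igraph 0.11.9, resolution 1). A cluster was named from marker genes over both libraries together where at least 3 markers were detected and no other class came close. The cells of 1 library were named on their own where at least 20 of them scored highest for another class.

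For each class and library, a gene's UMIs were added up and divided by all UMIs of those cells (CPM). Ratios are log2 of (takinib + 10 CPM) over (vehicle + 10 CPM), and intervals are exact at 95% (Poisson for sums, Clopper-Pearson for shares, binomial for ratios) and cover counting error only. With 1 library per group no test was possible. Classes were compared with at least 100 cells in each library. Members with at least 50 UMIs could be named, and the highest of each family always was; genes of other lists were named when among the 3 highest or lowest of their list, and likeness by the 5 highest correlations. The members and lists were chosen with earlier results of these data known. Scripts were tested on simulated counts. Gene models came from the GENCODE annotation of mm10 and promoters from RefSeq GRCm38.p6; the annotation the authors counted with is not given in the sources used here. Alternatives covered the cell filters, doublets, thinning, the pseudocount, clustering, scaling, the kind of vehicle cell, neutrophil RNA, a mean over cells and the cycle threshold. Proteins were not used here.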

Additional observations from a re-analysis of the deposited data

Results flagged for a closer look

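The sign of the difference between the libraries was not the same in all classes, and the differences between classes were not tested. Linker RNA was lower in takinib in neutrophil-like (log2 ratio -2.9563), macrophage-like (-1.9524), T-like (-0.5449), dendritic-like (-0.3234) and epithelial-like cells (-0.1725). It was higher in fibroblast-like cells (0.5463) and in the unnamed cluster 7 (0.39). Core RNA was lower in macrophage-like (-1.4053), neutrophil-like (-1.0361), B-like (-0.7737), epithelial-like (-0.5650) and T-like cells (-0.5231), and higher in fibroblast-like (0.5423) and dendritic-like cells (0.2563). The epithelial-like and dendritic-like signs turned under some alternatives, for linker and for core RNA.

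Vehicle barcodes with 1 to 100 UMIs, which enter no comparison, held 544.21 CPM of linker and 697.51 CPM of core RNA from 652323 UMIs in all. Hist1h1e was 159 CPM, Hist1h2bc 164, Hist1h1c 147 and Hist1h1d 138 CPM there.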

How the results depend on the processing

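Macrophage-like linker and core log2 ratios stayed below -1 in all 13 alternatives run for each (linker -2.14 to -1.72, core -1.54 to -1.16). Macrophage-like linker and core values were -2.12 and -1.54 with each cell thinned to 1000 UMIs, -1.72 and -1.16 against vehicle cells with Xist and no Y-linked UMI, -2.01 and -1.50 with the neutrophil profile subtracted, -2.14 and -1.52 as a mean over cells and -1.74 and -1.32 at a pseudocount of 50. The linker value was -2.01 at a pseudocount of 1, and the core value -1.44 at no more than 10% mitochondrial UMIs.

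Epithelial-like linker and core values were 0.14 and -0.40 thinned, 0.33 and 0.25 against vehicle cells with Xist and no Y-linked UMI, -0.36 and -0.70 with the neutrophil profile subtracted and 0.064 and -0.34 as a mean over cells. The linker value was -0.38 with no doublets removed, and the core value -0.63 at no more than 10% mitochondrial UMIs, -0.64 with the listed genes among the variable genes, -0.49 at resolution 0.5 and -0.46 with the median gene at 0. T-like core values were -1.42 with at least 2000 UMIs and 1000 genes, -1.26 at no more than 10% mitochondrial UMIs, -0.21 thinned and -0.34 as a mean over cells, and the linker value at no more than 10% was -0.99.

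High cells over cells with no cycle UMI gave, for linker and core in vehicle and then in takinib, 0.82, 1.51, 3.12 and 2.93 thinned, 0.84, 1.66, 3.30 and 3.15 with at least 5 UMIs and 0.2%, 0.97, 1.78, 3.39 and 3.28 from the G2/M list alone and 0.49, 1.13, 2.49 and 2.39 as a mean over cells. The vehicle core value was 1.42 at no more than 10% mitochondrial UMIs, and the takinib linker value 3.01 at a pseudocount of 1 and 2.76 with no doublets removed. The cause of these shifts was not tested.

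In the other classes the ranges were, for linker and core, -0.62 to 0.29 and -1.64 to -0.41 in B-like, -0.69 to 0.09 and -0.03 to 0.30 in dendritic-like, 0.15 to 0.63 and 0.20 to 1.08 in fibroblast-like, and -3.00 to -2.58 and -1.05 to -0.66 in neutrophil-like cells. No paired analysis was possible because each group has 1 library. The number of members that could be compared ran from 5 in dendritic-like to 58 in macrophage-like cells.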
